A study of Homo sapiens with 24 samples.

Results

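Human leukaemia cells taken from the blood were compared with cells taken from the spleen of the same mice, 24 h after the start of a CXCR4 inhibitor. The comparison used 6 of the 24 arrays of the study: 3 from blood and 3 from spleen, chosen by their titles and paired through the number of the mouse. The cells were OCI-AML3, an established human acute myeloid leukaemia line that had been engineered to carry luciferase and GFP. They grew in NOD/SCID/IL-2rγnull (NSG) mice, which lack T, B and natural killer cells of their own. Mice 1, 2 and 3 were treated with LY2510924, a peptide antagonist of CXCR4 given subcutaneously once a day at 2.5 mg/kg from day 40 after inoculation, and were killed on day 41. Leukaemia cells were sorted from blood, spleen and femoral marrow by GFP and human CD45, and their RNA was amplified in successive rounds before hybridisation to Illumina HT12 v4 arrays. The same sites were sampled in 3 control mice without inhibitor, numbered 4, 5 and 6 and killed on day 42, and in 2 mice treated for 72 h, numbered 8 and 9 and killed on day 43. All groups therefore share the cell line, the host strain and the sort, and harvest day cannot be told apart from treatment in any comparison between treatment groups.

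Stromal cells of marrow and other tissues make the chemokine CXCL12, and CXCR4 is the surface receptor that senses it. Leukaemia cells that carry CXCR4 are held near these stromal cells, and blocking the receptor releases cells into the circulation. The spleen is a tissue site with stroma and cell contacts where such cells lodge, whereas cells in blood circulate freely.

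The 2 genes below show regulatory sequence for the falls described next. HES1 encodes a repressor that is a classical target of Notch, and EGR1 encodes an immediate early transcription factor. Each line gives the 250 bases before the start of the gene on the forward strand of GRCh38.p14, from RefSeq. For HES1 (chr3:194135898-194136147) capitals mark TGGGAA, the core of the motif of RBPJ, the DNA-binding partner of Notch, which occurs 2 times.
HES1: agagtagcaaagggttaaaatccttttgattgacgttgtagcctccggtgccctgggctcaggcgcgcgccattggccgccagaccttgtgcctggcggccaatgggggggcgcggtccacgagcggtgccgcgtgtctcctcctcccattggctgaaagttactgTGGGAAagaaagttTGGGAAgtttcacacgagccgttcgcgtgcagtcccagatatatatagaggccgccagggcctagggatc
For EGR1 (chr5:138465229-138465478) capitals mark the CArG box, the motif of serum response factor, which also occurs 2 times.
EGR1: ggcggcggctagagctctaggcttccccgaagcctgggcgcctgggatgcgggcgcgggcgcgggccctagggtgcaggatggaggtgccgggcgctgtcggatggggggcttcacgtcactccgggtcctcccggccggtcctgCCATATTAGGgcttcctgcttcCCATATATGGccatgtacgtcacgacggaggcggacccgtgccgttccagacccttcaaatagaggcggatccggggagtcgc
Over all 35116 RefSeq windows of this length, 20.8% held TGGGAA on either strand and 1.16% held a CArG box, a palindromic motif searched as such. The windows of NEUROG2 and FOS, which also fell, held no match to TGGGAA and to the CArG box, respectively. Sequence beyond these 250 bases was not searched, so a motif further upstream would be missed. A match is a description of the letters and no evidence of binding.

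Levels below are normalised log2 intensities, and differences are blood minus spleen on that scale. A gene was called at an adjusted p below 0.05 from limma, with each mouse as a block and Benjamini-Hochberg adjustment over the 10351 genes tested. The SE of a difference comes from the spread pooled over all 24 arrays, not from the 3 treated mice alone. Arrays after 24 h varied more than control arrays, so this SE can understate the spread of the 3 mice. Blood and spleen RNA of mouse 3 were much more alike than those of the other mice. Across genes the correlation of the blood and spleen arrays was 0.942 in mouse 1, 0.95 in mouse 2 and 0.987 in mouse 3, against 0.958 to 0.979 in the control mice. The number of genes that differed by more than 1 log2 unit was 1723 in mouse 1, 1551 in mouse 2 and 144 in mouse 3. The 3 blood arrays after 24 h correlated with each other at 0.895 to 0.971 and the spleen arrays at 0.953 to 0.968, against at least 0.978 within each of these sites in control mice. On the 6 arrays, 13066 to 15721 probes were detected at p below 0.01.

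The defining markers of other cell types were checked on the same 6 arrays. CD3D, CD3E, CD3G, CD2 and CD8A of T cells, MS4A1 and CD79A of B cells, PF4 and ITGA2B of platelets, and CDH5, KDR and COL1A1 of vessel and stroma were not detected on any of them. The probes are for human genes and cells of the host carry mouse RNA, so this cannot show that host cells were absent. Other genes of the same lists were detected on all 6 arrays, so the lists were not wholly at background: GNLY at 12.12 to 13.14, NKG7 at 9.72 to 10.44 and NCAM1 at 8.58 to 9.55 of T and natural killer cells, GP1BA at 6.32 to 8.34 of platelets, PECAM1 at 9.76 to 11.12 of vessel and MARCO at 8.30 to 9.47 of macrophages. C1QB, a complement gene of macrophages, reached 8.13 in blood of mouse 1 and 5.97 in blood of mouse 3. Of 18 erythroid genes 11 were also not detected on any array, HBB among them, but the alpha-globin gene HBA2 was bright. Its level was 14.19, 14.14 and 14.08 in spleen and 11.46, 14.25 and 10.16 in blood of mice 1, 2 and 3. The spleen arrays were therefore alike and 2 of the 3 blood arrays were lower, and the summed intensity of the erythroid list ranged from 20500 to 22400 in spleen and from 4570 to 22000 in blood; the part of such RNA in the results was not tested. None of the marker genes that entered the test passed between blood and spleen: 7 erythroid, 6 of T and natural killer cells, 1 each of B cells and platelets, 7 of tissue macrophages and 3 of vessel and stroma. Of 12 genes listed as markers of this leukaemia line, 7 were detected, including PTPRC, ANPEP, MEIS1, CEBPA and SPI1, while KIT, CD34, MPO, CD4 and NPM1 were not detected on any of the 6 arrays. NPM1 encodes an abundant nucleolar protein in growing cells, and its brightest probe was at 4.51 to 4.77, so a probe at background does not by itself show that the RNA is absent.

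In blood, U3 small nucleolar RNA genes were the most raised, by 13.8-fold to 20.5-fold, and the Notch target HES1 and the neurogenic factor NEUROG2 were among the genes with the largest falls. Of the 10351 genes, 197 (1.9%) differed between blood and spleen: 83 (0.802%) were higher in blood and 114 (1.1%) were lower. All 197 moved the same way in the 3 mice, whereas 43.3% of all genes did. The test that chose the 197 uses the same 3 differences, so this is a description and no support. In control mice 599 genes differed (5.79%), 381 higher in blood (3.68%) and 218 lower (2.11%), and after 72 h there were 397 (3.84%), 112 higher (1.08%) and 285 lower (2.75%). The median difference over all genes after 24 h was -0.02. Rises and falls are relative to the middle of each array, and fewer cells of a type cannot be told apart from less RNA per cell.

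The 3 genes of the U3 small nucleolar RNA, which guides early processing of ribosomal RNA, showed the largest rises. SNORD3A had levels of 9.24, 10.39 and 8.20 in spleen and 13.41, 13.94 and 11.83 in blood of mice 1, 2 and 3. SNORD3C had 7.64, 9.10 and 6.05 in spleen and 12.44, 13.10 and 10.34 in blood. SNORD3D had 9.13, 9.34 and 7.14 in spleen and 12.86, 13.46 and 11.31 in blood. In each of the 3 genes the lowest blood value lay above the highest spleen value, and mouse 3 had the lowest level at both sites. The differences were 3.79 ± 0.41 (SE from the fit of all 24 arrays, n = 3 mice after 24 h, adjusted p = 0.00104, limma) for SNORD3A, 4.36 ± 0.53 (adjusted p = 0.0017) for SNORD3C and 4.01 ± 0.45 (adjusted p = 0.00104) for SNORD3D. These genes are near-identical copies, so their probes may read the same RNA and are not independent. The rise was present without inhibitor as well, at 3.30 ± 0.41 for SNORD3A in control mice (adjusted p = 0.000816) and 2.73 ± 0.50 after 72 h (adjusted p = 0.0121), and the 24 h difference minus the control difference, 0.49 ± 0.58, did not pass (adjusted p = 0.661).

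The H/ACA small nucleolar RNA genes SNORA57 and SNORA16A, whose class guides pseudouridylation, also rose. SNORA57 was at 9.94, 10.21 and 10.09 in spleen and 11.90, 11.94 and 11.09 in blood, a difference of 1.56 ± 0.21 (adjusted p = 0.00314, limma). Its spleen values were tight and all lay below the blood values. SNORA16A was not well above background in any spleen array and was detected in all 3 blood arrays, so that blood was at least 2.35-fold higher (adjusted p = 0.0026). In control mice SNORA57 was higher in blood as well, by 0.75 ± 0.21 (adjusted p = 0.0475, limma). SNORA16A was at least 1.41-fold higher in control blood (adjusted p = 0.00372). Of 45 small RNA genes tested, 5 rose and none fell after 24 h, against 0.802% and 1.1% of all genes. The list's median was 0.54, against -0.20 in control mice. The 5 include the SNORD3 genes, whose probes may read the same RNA, so they are not 5 independent rises. The median after 24 h was 0.85 in mouse 1, 0.57 in mouse 2 and 0.00 in mouse 3. Without mouse 3, 18 rose and 2 fell, when 8.01% and 11.7% of all genes did. Without mouse 1 the called small RNA genes were SNORD3A and SNORD3D, and without mouse 2 they were SNORD3A, SNORD3C and SNORD3D.

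**Figure D1:**
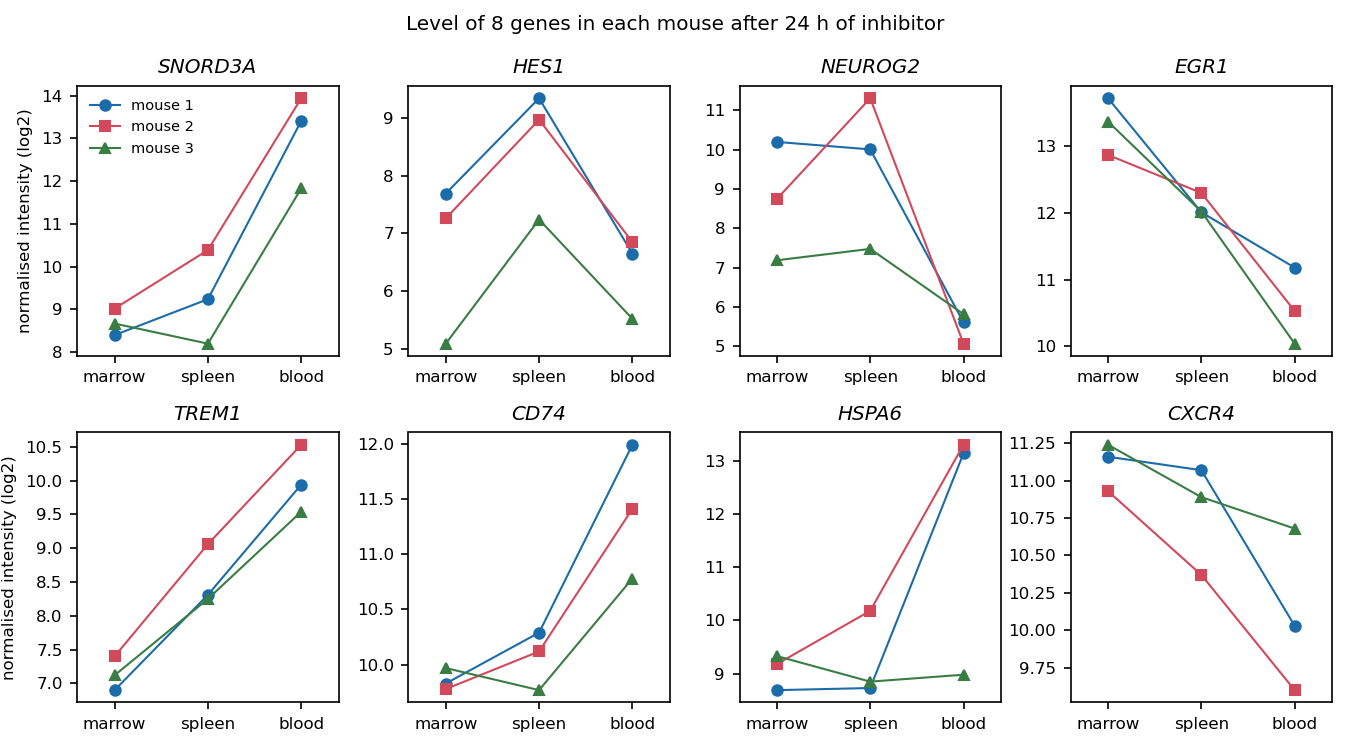
Normalised intensity (log2) of 8 genes in marrow, spleen and blood of the 3 mice treated for 24 h; each line is 1 mouse and each point 1 array. SNORD3A, TREM1 and CD74 were higher in blood than in spleen of every mouse and HES1, NEUROG2 and EGR1 were lower, while HSPA6 was level in mouse 3 and CXCR4 did not pass the test.

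HES1 and NEUROG2 of the Notch and HES group fell in blood. HES1 was at 9.34, 8.97 and 7.24 in spleen and at 6.65, 6.85 and 5.52 in blood of mice 1, 2 and 3. All blood values lay below all spleen values, and the value of mouse 3 in blood was not above background. The difference was -2.17 ± 0.25 (adjusted p = 0.00104, limma), a level 4.51-fold higher in spleen. After 72 h no blood array measured HES1 above background, so that spleen was at least 2.07-fold higher (adjusted p = 0.0057). In control mice it was above background on 1 of 3 blood arrays and did not pass (adjusted p = 0.0815), and the test of the 24 h difference against the control difference did not pass either (adjusted p = 0.0628).

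NEUROG2, a proneural basic helix-loop-helix factor, was at 10.01, 11.31 and 7.48 in spleen and at 5.61, 5.07 and 5.82 in blood. No blood array measured it above background, while all 3 spleen arrays did, with mouse 3 well below the other mice. Spleen was at least 11.9-fold higher (adjusted p = 0.00678, limma). The spleen levels were 9.60 ± 1.95 (SD, n = 3) and the measured blood levels 5.50 ± 0.39. The control difference of this gene was -0.88 ± 0.60 (adjusted p = 0.418) and the difference between treatments did not pass (adjusted p = 0.0719). NEUROG2 was above background on 1 of 3 control blood arrays, so the size of the control difference rests partly on background values. In the list of 11 Notch and HES genes tested these 2 fell and none rose, against 1.1% and 0.802% of all genes, with a median of -0.54. HES6, which counters HES1, had a difference of 0.68 (adjusted p = 0.144) and the receptor NOTCH2 one of -0.80 (adjusted p = 0.2). Among the list's genes detected on all 6 arrays, which leaves out HES1 and NEUROG2, the median was 0.32.

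Immediate early genes, which are transcribed within minutes of a signal, moved both ways. EGR1 was at 12.01, 12.30 and 12.02 in spleen and at 11.18, 10.53 and 10.04 in blood. The spleen arrays were nearly equal and all blood arrays were lower, with a difference of -1.53 ± 0.34 (adjusted p = 0.0438, limma). FOS, a subunit of AP-1, was at 14.13, 13.77 and 13.73 in spleen and at 12.92, 12.56 and 12.95 in blood. Again the sites did not overlap, and the difference was -1.07 ± 0.17 (adjusted p = 0.0163). IER5L, a member of the same class that the list holds, went the other way, at 6.02, 5.90 and 5.67 in spleen and 7.90, 8.01 and 7.05 in blood (1.79 ± 0.23, adjusted p = 0.0026). It was above background in 1 of 3 spleen arrays and in all blood arrays, so the size of this difference rests partly on background values. Of 24 immediate early genes tested, 1 rose, 2 fell and 21 did not pass, against 0.802% and 1.1% of all genes that rose and fell, with a median of -0.03. EGR1 was lower in blood in control mice also (-2.35 ± 0.34, adjusted p = 0.00186), and its 72 h difference was -0.44 ± 0.42 (adjusted p = 0.553). Among 10 genes of ERK feedback only DUSP8, a phosphatase of stress kinases, rose (1.14 ± 0.26, adjusted p = 0.0454), against 0.802% of all genes. SIK1, a kinase gene that cyclic AMP induces, fell from 10.40, 9.65 and 8.17 in spleen to 7.29, 8.36 and 7.61 in blood, with overlap between the spleen value of mouse 3 and a blood value (-1.65 ± 0.38, adjusted p = 0.0454).

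**Figure D2:**
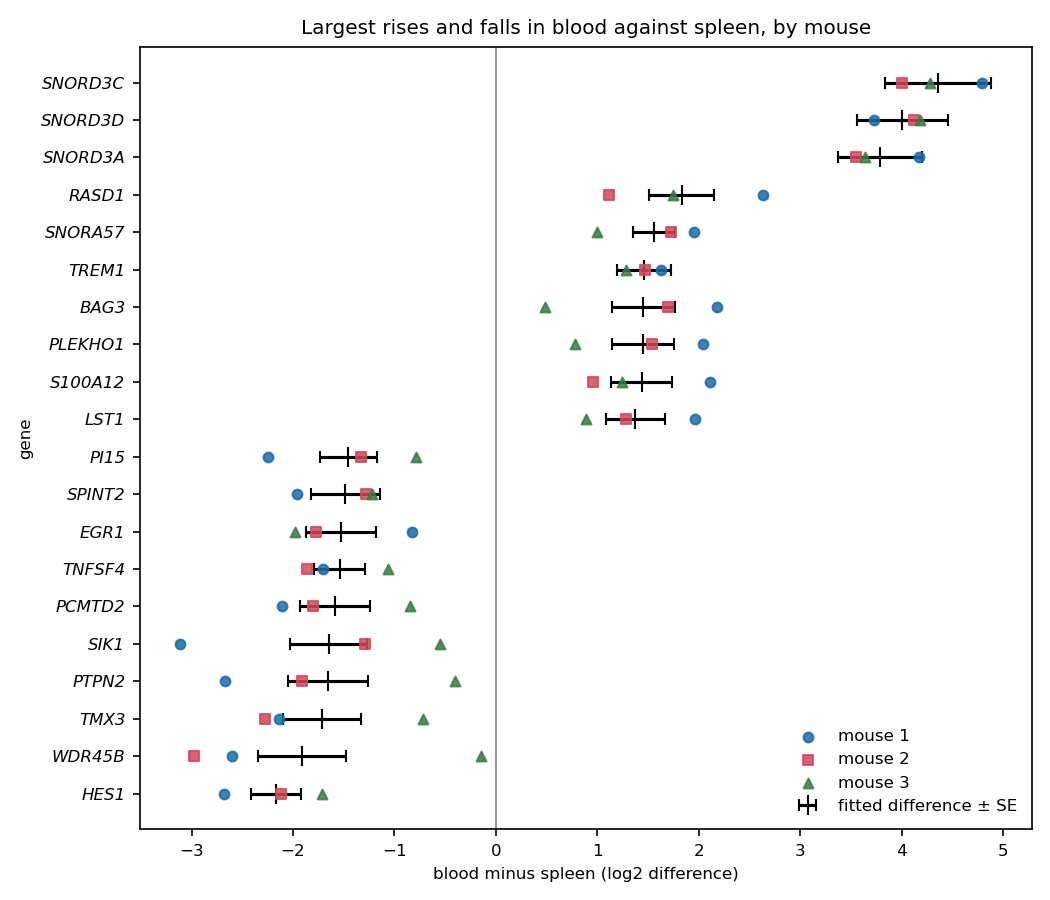
Blood minus spleen difference (log2) of the 10 largest rises and 10 largest falls, among called genes detected on at least 2 of 3 arrays of both sites, in mice 1, 2 and 3 (coloured points), with the fitted difference and its standard error (black). The SNORD3 genes were alike in the 3 mice, whereas BAG3 (0.48) and WDR45B (-0.15) were nearest 0 in mouse 3.

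TREM1, a receptor that amplifies inflammatory signalling in monocytes and neutrophils, was at 8.31, 9.06 and 8.25 in spleen and at 9.94, 10.53 and 9.54 in blood. The sites did not overlap and the 3 mice were alike, with a difference of 1.46 ± 0.27 (adjusted p = 0.0238, limma). TREM1 was higher in blood of control mice (2.17 ± 0.27, adjusted p = 0.000816) and of 72 h mice (1.75 ± 0.33, adjusted p = 0.0122). S100A12, a secreted calcium-binding protein of phagocytes, was at 6.82, 8.06 and 5.47 in spleen and at 8.93, 9.02 and 6.71 in blood. Here the sites overlapped across mice, but each mouse was higher in blood (1.44 ± 0.30, adjusted p = 0.0344). It was above background on 2 of 3 spleen arrays, and with the mouse as a random block it did not pass (adjusted p = 0.0819). LST1, a leukocyte transcript of the MHC region, rose by 1.38 ± 0.29 (adjusted p = 0.0346). Of 26 mature myeloid genes tested, 2 rose and none fell, against 0.802% and 1.1% of all genes, and the median was 0.33, against -0.02 for all genes. FCGR2A, an IgG receptor, had a difference of -0.76 (adjusted p = 0.0584). SLC11A1, a metal transporter of phagosomes, had 1.17 (adjusted p = 0.0654).

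CD74, the invariant chain that escorts MHC class II molecules, was at 10.29, 10.12 and 9.77 in spleen and at 11.99, 11.41 and 10.78 in blood. All blood values were above all spleen values (1.33 ± 0.28, adjusted p = 0.0359, limma). It was the only one of 11 MHC class II genes tested that passed, against 0.802% and 1.1% of all genes that rose and fell. HLA-DMA (0.81, adjusted p = 0.0832) and HLA-DMB (0.77, adjusted p = 0.0935) load peptide, and HLA-DRA (0.50, adjusted p = 0.101) is the alpha chain. The list's median was 0.60, at 0.88 in mouse 1, -0.10 in mouse 2 and 1.01 in mouse 3, so that mouse 2 differed here from the other mice. None of 13 MHC class I genes and none of 25 interferon-stimulated genes passed, with medians of 0.06 and 0.11; ISG15, an interferon-induced modifier, had 0.97 (adjusted p = 0.0729).

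Of the genes listed as cytokines and chemokines 3 passed, in both directions. CCL23, a myeloid chemokine, was at 8.87, 9.18 and 7.87 in spleen and at 10.75, 10.37 and 8.43 in blood (1.21 ± 0.25, adjusted p = 0.0329, limma). TNF, the inflammatory cytokine, was at 8.53, 9.79 and 9.50 in spleen and at 10.98, 10.79 and 10.09 in blood (1.35 ± 0.31, adjusted p = 0.0454). TNF did not overlap between sites, whereas the blood value of CCL23 in mouse 3 lay below spleen values of the other mice. IL19, a cytokine of the IL-10 family, was at 8.46, 8.52 and 4.85 in spleen and at 4.61, 5.25 and 4.55 in blood. It was above background in the spleen of mice 1 and 2 only and in no blood array, so that spleen was at least 2.38-fold higher (adjusted p = 0.0347). Of 19 cytokine and chemokine genes tested, 2 rose, 1 fell and 16 did not pass, against 0.802% and 1.1% of all genes that rose and fell. CCL2, the monocyte chemoattractant, had 0.96 (adjusted p = 0.0554). Among 14 genes of NF-kB and its feedback only BCL3, an atypical IkB protein, rose (0.81 ± 0.19, adjusted p = 0.0486), against 0.802% of all genes. The inhibitor NFKBIA had 0.81 (adjusted p = 0.0685). TNFSF4, the OX40 ligand, fell from 8.42, 7.10 and 6.98 in spleen to 6.72, 5.24 and 5.92 in blood, with all blood values below all spleen values (-1.54 ± 0.25, adjusted p = 0.0163). TNFSF4 was above background on 2 of 3 blood arrays, so the size of its fall rests partly on a background value.

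The heat shock genes BAG3 and HSPA6 were high in blood of mice 1 and 2 and not of mouse 3. BAG3, a co-chaperone of HSP70, was at 9.39, 9.89 and 9.09 in spleen and at 11.57, 11.59 and 9.57 in blood. Mouse 3 in blood lay within the spleen range, and the difference was 1.45 ± 0.31 (adjusted p = 0.0368, limma). HSPA6, a strictly stress-induced HSP70, was at 8.73, 10.18 and 8.85 in spleen and at 13.14, 13.30 and 8.98 in blood, a large difference in 2 mice and almost none in mouse 3, and it did not pass (2.55 ± 0.68, adjusted p = 0.0586). HSPA1A, the major inducible HSP70, had 1.15 (adjusted p = 0.066). Of 21 heat shock genes tested, 1 rose and none fell, against 0.802% and 1.1% of all genes. Without mouse 3, 5 rose and 1 fell, when 8.01% and 11.7% of all genes did, and HSPA6 then had 3.76 (adjusted p = 0.000754, limma). Mouse 3 had almost no difference in HSPA6, so leaving it out is a description and no support. The 6 calls without mouse 1 and the 4 without mouse 2 held no heat shock gene. The median of the list was 0.47, 0.38 and 0.08 in mice 1, 2 and 3, against -0.11 in control mice and -0.46 after 72 h.

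**Figure D3:**
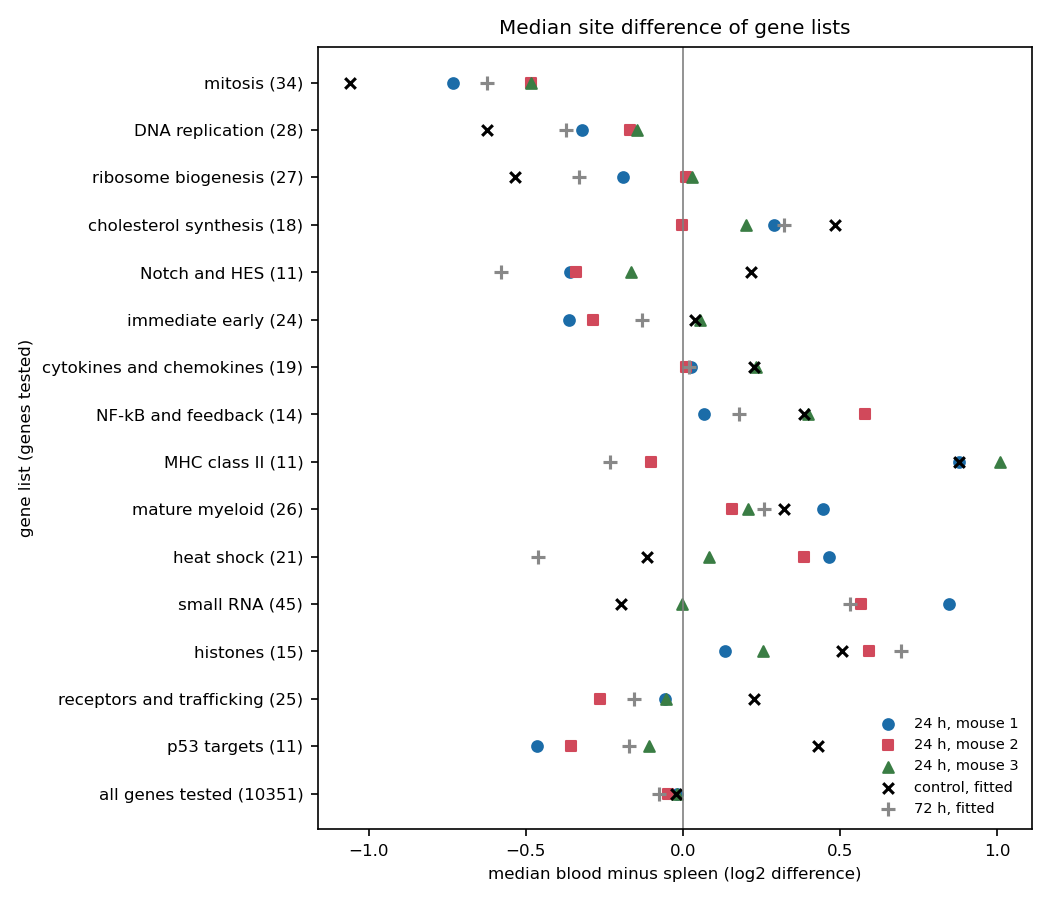
Median blood minus spleen difference (log2) of 15 gene lists and of all genes, with the number of genes tested in brackets, for mice 1, 2 and 3 after 24 h and as fitted for control and 72 h mice. Of the lists shown, mitosis genes lay lowest in each mouse and group (-0.73, -0.48 and -0.48 in the 3 mice and -1.06 in control), while all genes together lay near 0; of the lists not drawn, the erythroid markers lay lower in mouse 1 (-0.86) and after 72 h (-0.83), and the leukaemia line markers in mouse 2 (-0.52).

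Cell cycle genes did not pass singly. None of 34 mitosis genes was called in either direction. Of them, 31 had a difference below 0, against 5403 of all 10351 genes. In all 3 mice 22 were lower in blood, against 23.7% of all genes, and the median was -0.58. KIF11, a motor of the spindle, was at 8.91, 8.28 and 9.11 in spleen and at 7.63, 7.35 and 8.58 in blood (-0.91 ± 0.27, adjusted p = 0.0703, limma), and the blood value of mouse 3 lay within the spleen range. KIF23 (-1.16, adjusted p = 0.0722), TTK (-1.06, adjusted p = 0.0778) and DLGAP5 (-0.84, adjusted p = 0.0855), which act in cytokinesis, the spindle checkpoint and spindle assembly, were below 0 also. Without mouse 3, 6 of the 34 fell, when 11.7% of all genes did. The 6 calls without mouse 1 and the 4 without mouse 2 held no mitosis gene. Among 28 replication genes none passed and the median was -0.13; the helicase subunit MCM5 had -0.61 (adjusted p = 0.0896).

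The inhibitor's target did not pass. CXCR4 was at 11.07, 10.37 and 10.89 in spleen and at 10.03, 9.60 and 10.68 in blood. It was lower in blood of each mouse, the blood value of mouse 3 lay within the spleen range, and the difference was -0.68 ± 0.24 (adjusted p = 0.103, limma). Without mouse 1, 2 or 3 it was -0.49, -0.63 and -0.91, respectively (adjusted p = 0.492, 0.358 and 0.0432, limma). CXCR4 passed in 2 of 14 alternative settings. With the mean of its 2 kept probes the difference was -0.17 (adjusted p = 0.57). The dimmer probe, at 6.16 to 6.99 on these arrays, had a mean difference of 0.33. None of 25 chemokine receptor and trafficking genes passed; CCR2, the receptor of CCL2, had -0.79 (adjusted p = 0.0586), the arrestin gene ARRB1 -0.53 (adjusted p = 0.0606), the integrin chain ITGB1 -0.76 (adjusted p = 0.0651) and RGS1, which damps G protein signalling, -1.11 (adjusted p = 0.0732).

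Among transcription factors of myeloid cells and leukaemia, 1 rose and 1 fell. IRF8, which directs monocyte and dendritic cell fate, was at 14.46, 13.70 and 13.84 in spleen and at 13.09, 12.81 and 13.54 in blood. No blood value reached a spleen value (-0.86 ± 0.18, adjusted p = 0.0344, limma). HOXB6 rose from 7.69, 7.47 and 7.14 to 8.56, 9.08 and 7.73 (1.03 ± 0.23, adjusted p = 0.0405). They were the 2 of 17 such genes that passed, against 0.802% and 1.1% of all genes that rose and fell. MEIS1, a HOX cofactor, had -0.87 (adjusted p = 0.0701) and HOXB3 0.82 (adjusted p = 0.0895).

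Metabolic and housekeeping lists held few calls, where 0.802% of all genes rose and 1.1% fell. SLC2A3, a glucose transporter, rose from 11.11, 11.39 and 11.18 to 12.29, 11.99 and 11.87 (0.83 ± 0.17, adjusted p = 0.0305, limma) and was the only called gene of 33 in glycolysis and hypoxia; HK2, hexokinase 2, had -1.26 (adjusted p = 0.0878). NDUFB10, a subunit of complex I, rose by 1.15 ± 0.27 (adjusted p = 0.049) as the only one of 28 oxidative phosphorylation genes. None of 18 cholesterol synthesis, 37 ribosomal protein, 27 ribosome biogenesis, 18 ATF4 and CHOP, 14 BCL2 family and 11 p53 target genes passed, nor any of 10 granule and 15 histone genes. Of the histone genes 10 were higher in blood of all 3 mice, against 19.6% of all genes, among them H2AC18 (0.80, adjusted p = 0.0541). RPL23, a protein of the large ribosomal subunit, was at 10.67, 8.92 and 10.63 in spleen and at 5.04, 4.79 and 11 in blood. It was at background level in blood of mice 1 and 2 and bright in mouse 3, and it did not pass (-3.13 ± 1.02, adjusted p = 0.0849). BCL2L2, a survival protein, had -1.07 (adjusted p = 0.054).

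Other large differences belonged to no list. RASD1, a Ras-related gene induced by glucocorticoids, rose from 9.25, 9.88 and 8.67 to 11.88, 11 and 10.42, without overlap (1.83 ± 0.32, adjusted p = 0.0219, limma). PLEKHO1, a pleckstrin homology protein, rose by 1.45 ± 0.31 (adjusted p = 0.0359). WDR45B, a gene of autophagosome formation, was at 9.77, 9.34 and 8.82 in spleen and at 7.17, 6.36 and 8.67 in blood, so that mouse 3 hardly differed (-1.91 ± 0.43, adjusted p = 0.0438). The phosphatase gene PTPN2, a negative regulator of JAK-STAT signalling, was at 8.82, 7.06 and 8.23 in spleen and at 6.15, 5.15 and 7.83 in blood, and again mouse 3 had the smallest difference (-1.66 ± 0.39, adjusted p = 0.049). TMX3 (-1.71 ± 0.39, adjusted p = 0.0437), a disulfide isomerase of the endoplasmic reticulum, PCMTD2 (-1.59 ± 0.35, adjusted p = 0.0387) and PI15 (-1.46 ± 0.28, adjusted p = 0.0277) also fell. PTPN2 and TMX3 were above background on 2 of 3 blood arrays, so the sizes of their falls rest partly on background values. Detected in all 3 arrays of 1 site and in none of the other were SUSD5 and SART1, a splicing factor, at least 1.31-fold and 1.26-fold higher in blood (adjusted p = 0.0411 and 0.0163). The reverse held for MBNL2, also a splicing regulator, GNG11, a G protein subunit, ICE2 and HDHD5-AS1, which were at least 2.04-fold, 1.78-fold, 1.43-fold and 1.35-fold higher in spleen (adjusted p = 0.0238, 0.024, 0.049 and 0.0305). The other kept probe of HDHD5-AS1 had a difference of 0.57, opposite in sign, and with the mean of probes this gene (-0.22, adjusted p = 0.569) and ICE2 (-0.85, adjusted p = 0.0509) did not pass.

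The 24 h site difference was also set against that of control mice, which asks whether blood and spleen cells differ in another way under the inhibitor. This test of the difference itself called 135 of 10351 genes (1.3%). For 85 the 24 h difference was below the control difference (0.821%), and for 50 it was above (0.483%). The 85 had a median of 1.08 in control mice, where all of them lay above 0 and 60 were called, and a median of -0.44 after 24 h, where 15 were called. The 50 had a median of -0.63 in control mice, where all lay below 0, and of 0.65 after 24 h. These medians describe genes that the test chose and support nothing further.

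EMP1, an epithelial membrane protein, had a blood minus spleen difference of 2.29, 2.30 and 2.18 in control mice 4, 5 and 6 and of -1.56, -0.93 and 0.34 in mice 1, 2 and 3. All control mice were higher in blood by about the same amount and 2 of the 3 treated mice were lower (-2.97 ± 0.53 for the difference between treatments, adjusted p = 0.0333, limma). Spleen levels of EMP1 were 9.70, 9.27 and 9.38 in control mice and 11.89, 10.68 and 12.72 after 24 h. SPINT2, a serine protease inhibitor, was at 7.31, 7.53 and 7.75 in control spleen and at 10.65, 9.55 and 9.59 in spleen after 24 h. Its blood levels were 8.26, 8.06 and 9.28 in control mice and 8.69, 8.26 and 8.37 after 24 h, so that the spleen arrays of the treatments were apart and the blood arrays overlapped. The difference between treatments was -2.49 ± 0.48 (adjusted p = 0.0373). With the mouse as a random block neither this difference (adjusted p = 0.0692) nor the 24 h site difference of SPINT2 (adjusted p = 0.0866) passed. RGCC (-2.44, adjusted p = 0.0364) and IGFBP3 (-2.32, adjusted p = 0.0381), a carrier of insulin-like growth factors, passed also, with control differences of 2.29 and 2.14 and 24 h differences of -0.15 and -0.19. TMEM74B passed too (adjusted p = 0.0148), but no control spleen array measured it above background, so only a bound can be given there: blood was at least 2.49-fold higher in control mice. GNLY, which encodes granulysin, had -1.93 (adjusted p = 0.0429), from 1.73 in control mice to -0.20 after 24 h. IL7R (-2.15, adjusted p = 0.0332), the interleukin-7 receptor, and CDKN1A (-1.66, adjusted p = 0.0438), an inhibitor of cyclin-dependent kinases, also passed. INSIG1 (-1.87, adjusted p = 0.0464), the sterol-sensing brake of cholesterol synthesis, passed as well.

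On the other side stood SLC27A5, a bile acid and fatty acid CoA ligase gene. Its differences were -0.83, -0.91 and -0.95 in control mice and 1.14, 1.85 and 0.60 after 24 h, opposite in sign in every mouse (2.09 ± 0.34, adjusted p = 0.0257, limma). MOSPD3 (1.74, adjusted p = 0.0257), CHCHD10 (1.70, adjusted p = 0.0481), a mitochondrial cristae protein, SNORD57 (1.94, adjusted p = 0.0465) and C19orf48P (1.69, adjusted p = 0.0381) followed. CCL23 (1.53, adjusted p = 0.0475), NOP16 (1.51, adjusted p = 0.0385) of ribosome assembly, GINS2 (1.33, adjusted p = 0.0381) of the replicative helicase and AZU1 (0.98, adjusted p = 0.0433) of primary granules also passed. Controls 5 and 6 lay on another BeadChip than mice 1 to 4; the values of control mouse 4, on the same BeadChip as the treated mice, were 2.29 for EMP1 and -0.83 for SLC27A5, and a fit of that BeadChip alone called 0 genes. The 135 calls became 0 without mouse 1, 1 without mouse 2, 1028 without mouse 3 and 0 without the mouse as a block.

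**Figure D4:**
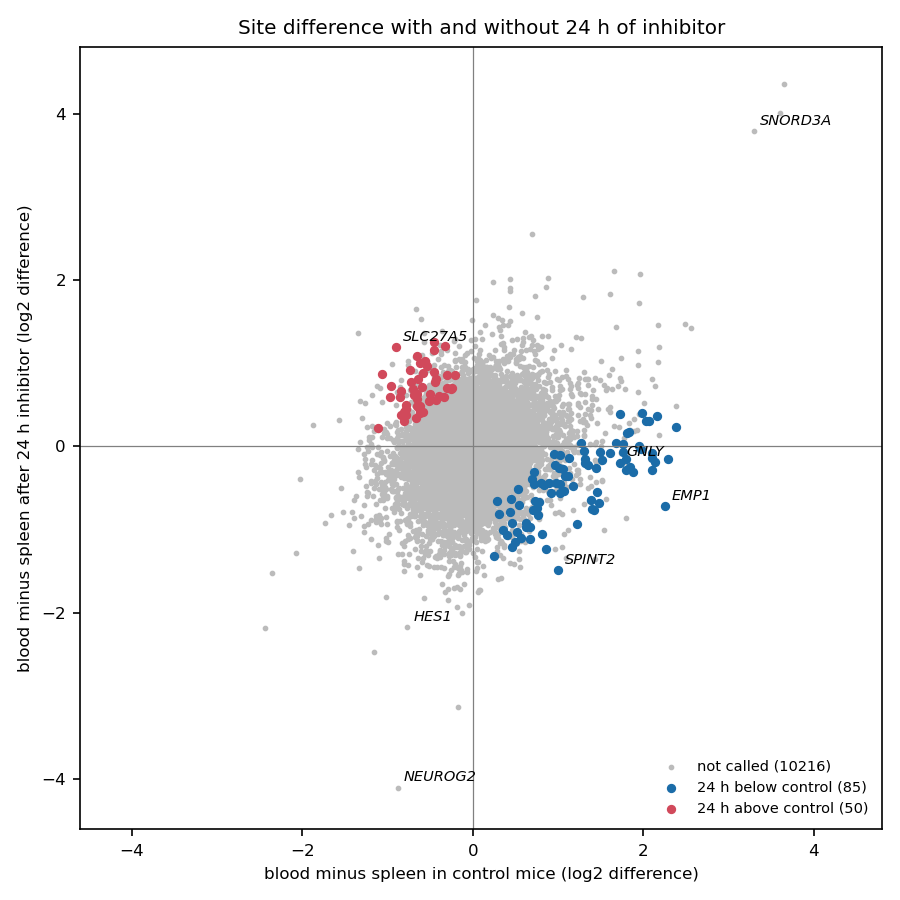
Blood minus spleen difference (log2) of 10351 genes in control mice (horizontal) and after 24 h of inhibitor (vertical); coloured points are the 135 genes whose difference differed between the treatments. The 85 blue genes lay above 0 in control mice and the 50 red genes below 0, while SNORD3A was high in both.

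Against the 72 h mice, 0 of 10351 genes passed the same test, with 1044 at an unadjusted p below 0.05 and 2 mice in the 72 h group. SNORD3A rose in both groups, and HES1 was at background in blood after 72 h. TREM1 had 1.46 and 1.75. BAG3 had 1.45 after 24 h and -0.63 after 72 h, and the difference between the times did not pass (2.09 ± 0.49, adjusted p = 0.209, limma).

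The number of calls depended on which mice entered the fit. Among the 197 genes the median size of the difference was 1.24 in mouse 1, 1.27 in mouse 2 and 0.648 in mouse 3, and mouse 3 had the smallest difference in 79.7% of them, against 58.8% of all genes, given as a description. Without mouse 3, 2042 genes (19.7%) were called, including all 197. Without mouse 1 there were 6 calls and without mouse 2 there were 4, and SNORD3A, SNORD3D and HES1 were called in each of these 3 fits. A fit without the mouse as a block, which ignores the pairing, called 16 genes, and one on the 6 arrays alone called 3, SNORD3A, SNORD3C and SNORD3D. The SNORD3 genes and HES1 had adjusted p values from 0.0326 to 0.0731 in the fits without mouse 1 or 2, while RASD1 had 0.251 without mouse 1 and EGR1 0.24 without mouse 2.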

How the data were processed

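Arrays of sorted OCI-AML3 cells from blood and spleen of 3 mice after 24 h of inhibitor were analysed within a fit of all 24 arrays. The deposited intensity values were raw probe signals with a detection p-value for each probe, exported from GenomeStudio per the submitters' processing notes. The second deposited table also holds intensity values: each array equals the raw signal minus 1 constant (49.7 to 64.5), with no scaling between arrays. It served as an alternative, floored at 16.

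Signals were background-corrected and quantile-normalised with neqc (limma 3.58.1, R 4.3.3, offset 16) and taken to log2. Of 47231 probes, 30113 had 1 gene symbol, 8 several and 17110 none in the platform annotation. Probes detected at p below 0.01 on at least 3 of 24 arrays were kept (17116), and the brightest probe stood for each of 10351 genes. The fit had each mouse as a block and a site difference per treatment (residual df 10), with two-sided tests and Benjamini-Hochberg adjustment at 0.05. Blood and spleen came from the same animal per the labels; their deviations from the group means correlated at 0.108, 0.609 and 0.697 in mice 1, 2 and 3. The script was tested on simulated data. The number of arrays limits the precision.

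The gene lists, and the rule naming CXCR4, the 10 largest rises and falls among called genes detected on at least 2 of 3 arrays of both sites, genes detected at 1 site, up to 4 genes per list and up to 5 each way that differed from control, were chosen with earlier results of these data known. A bound sets the bright site's mean against the lowest detected signal of each array of the other site. Labels also spell the inhibitor LY2510294.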

Additional observations from a re-analysis of the deposited data

Results flagged for a closer look

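The site difference after 24 h differed from that in control mice for 11 named genes, by a test of the difference itself in limma with adjustment over all genes. All of them but HDHD5-AS1 were named for passing this test, so their passing was fixed by the naming rule and is no separate result. Below the control difference lay EMP1 (-2.97 log2 units), SPINT2 (-2.49), RGCC (-2.44), TMEM74B (-2.38, with control spleen at background), IGFBP3 (-2.32) and HDHD5-AS1 (-1.35). HDHD5-AS1 was at background in blood after 24 h, and its other kept probe had a 24 h site difference of 0.57, opposite in sign. Above it lay SLC27A5 (2.09), SNORD57 (1.94), MOSPD3 (1.74), CHCHD10 (1.70) and C19orf48P (1.69, adjusted p = 0.0621 with the mean of probes). Of the gene list members, INSIG1 (-1.87), ITGAX (-1.68), GNLY (-1.93), PFKP (-1.43), RUNX3 (-1.24), CDKN1A (-1.66) and IL7R (-2.15) lay below the control difference, and GINS2 (1.33), CCL23 (1.53), AZU1 (0.98) and NOP16 (1.51) above it. For EMP1, RGCC and IGFBP3 the difference of mouse 3 was the nearest of the 3 treated mice to the control values, at 0.34, 1.00 and 0.70. SNORD57 was 1.92 in mouse 1 and 0.47 and 0.22 in mice 2 and 3. The treated mice were killed on day 41 and the controls on day 42, and harvest day and treatment cannot be told apart.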

How the results depend on the processing

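Among the named genes no called direction reversed under any alternative run. SNORD3A and SNORD3D passed in 14 of 14 alternatives, SNORD3C in 13 of 14 and HES1 in 11 of 13. Their adjusted p values (limma) ranged up to 0.0356, 0.0356, 0.0731 and 0.131. The other called genes passed less often. NEUROG2 passed in 9 of 13, TREM1 in 8 of 14, and EGR1, BAG3 and LST1 in 7 of 14. SPINT2 passed in 6 of 14, S100A12 in 5 of 13 and ICE2 in 4 of 13. Of the named results, 31 no longer passed without the mouse as a block and 25 on the 6 arrays alone. The 197 calls after 24 h became 312 with raw intensities quantile-normalised without background correction, 322 with offset 50 and 113 without the detection filter. With the deposited background-subtracted intensities and no scaling there were 8; the median of all genes was then -0.61 in place of -0.02, so directions are relative to the middle of each array. In those values the calls were 24 in control mice, 13 after 72 h and 3 for the 24 h difference minus the control difference. Among genes detected on all 6 arrays, 55.9% of 136 calls were higher in blood, against 42.1% in all; without the block the share was 56.2%. Without the replicate block, that is without the pairing by mouse, the calls were 16 after 24 h, 171 in control mice, 53 after 72 h and 0 for 24 h minus control. The 6 arrays alone gave 3. BeadChip 1 alone gave 6, and 0 both in control and for 24 h minus control, where 1 control mouse is assumed to vary like the others. Array quality weights, estimated gene by gene, gave 1665 after 24 h, 3095 in control mice, 1 after 72 h and 1758 for 24 h minus control. Leaving out mouse 1, 2 or 3 gave 4 to 2042 calls after 24 h, 334 to 685 after 72 h, and 0 to 1028 for 24 h minus control. The count against 72 h, 0 in the analysis as reported, was 1 with raw quantile normalisation, with offset 50 and with genes detected on all 6 arrays, 2 with the mouse as a random block, and 0 to 4 leaving out a mouse. The cause of these shifts was not tested, beyond the fewer samples or genes that a setting holds.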
